A study of Mus musculus with 3 samples.

Results

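The 7 genes described here encode the machinery by which MHC class II molecules show peptides to CD4+ T cells, namely *H2-Aa*, *H2-Ab1*, *H2-Eb1*, *H2-DMa*, *H2-DMb1*, *Cd74* and *Ciita*. They were taken by gene symbol from a list, with no filter on their values, although the list was chosen with earlier results of these data known. All 7 were among the 26970 genes of the deposited table. Expression was measured by RNA sequencing of mandibular condyles from 4-month-old mice of 3 genotypes, which were wild-type (WT), *Dspp*+/- and *Dspp*-/-. *Dspp* encodes dentin sialophosphoprotein, a matrix protein of dentin, bone and cartilage, and the deletion is a global knockout on the C57BL/6 background that carries no cell type restriction. Each genotype had 1 library, although the sample descriptions speak of triplicates. The study's methods describe the WT library and the *Dspp*+/- library as pools of 3 animals each, while the number of animals behind the *Dspp*-/- library is not given in the sources used here. No test between genotypes was therefore possible, and each fold below compares single libraries, with an interval that covers counting error only.

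MHC class II molecules are dimers of an alpha and a beta chain that load peptides from endocytosed proteins in late endosomes. The invariant chain, encoded by *Cd74*, escorts new dimers and plugs the groove until it is degraded, and the H2-DM dimer then exchanges the remaining fragment for a peptide. *Ciita* encodes the transactivator that switches on the class II genes, and in bone the main constitutive users of this programme are B cells, dendritic cells and some macrophages of the marrow. The mouse H2-A dimer is made of the *H2-Aa* and *H2-Ab1* products. C57BL/6 mice lack the alpha chain of H2-E, so *H2-Eb1* is transcribed there without forming the H2-E dimer.

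Class II promoters are recognised by a pair of short elements, the X box bound by the RFX complex and the Y box bound by NF-Y, on which the transactivator assembles. RefSeq promoters of GRCm38.p6, each 250 bases before to 50 bases after a start, were found for 4 of the 7 genes and for 4 other class II genes. They are shown because the same arrangement recurs in genes whose levels differed between the libraries in different ways. The Y box core CCAAT, on either strand, was present in a promoter of all 8 genes, against 37.4% of the 32851 promoters. ACAGATG, a stretch of some X boxes, was looked for anywhere in the 300 bases, on either strand. It was present in 2 of the 8 genes, *H2-Aa* and *H2-Oa*, against 5.01% of promoters. In neither gene did it lie within the stretch that holds the paired letters described next. A looser pair, GNAAC followed after 24 to 30 bases by ATTGG, the Y box core read from the other strand, was chosen after the sequences were seen. It was present in 6 of the 8 genes, against 1.19% of all promoters on either strand, and in 3 of the 4 listed genes with an entry. *H2-DMa* and *H2-DMb2* did not hold these letters in these windows. Capitals mark the GNAAC letters and the ATTGG letters, and *H2-Ob* stands for the other class II genes:
H2-Aa: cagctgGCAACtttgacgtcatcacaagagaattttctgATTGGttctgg
H2-Eb1: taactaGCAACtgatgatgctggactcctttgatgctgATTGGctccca
H2-DMb1: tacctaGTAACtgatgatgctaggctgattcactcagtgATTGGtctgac
H2-Ob: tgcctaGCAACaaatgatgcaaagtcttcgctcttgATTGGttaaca
They lie at chr17:34287861-34287910 (minus strand), chr17:34305770-34305818, chr17:34153091-34153140 and chr17:34238812-34238858 (plus strand) of GRCm38.p6. The capitals are separated by 28 bases in *H2-Aa* and *H2-DMb1*, 27 in *H2-Eb1* and 25 in *H2-Ob*. A match of letters describes the sequence and does not show binding.

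The authors' table gives 1 value per gene and library. The values were read as FPKM, meaning fragments scaled to exon length and library size, and the fragments behind each value were recovered from them. The WT library had 20241576 fragments, the *Dspp*+/- library 23613621 and the *Dspp*-/- library 22253158. The libraries differed in their cell markers. Bone markers were present in every library, with *Col1a1* at 6675, 1719 and 3610 FPKM in WT, *Dspp*+/- and *Dspp*-/-, as was the cartilage collagen gene *Col2a1*, while the cartilage gene *Matn1* was at 0.0494, 0 and 0.0674 FPKM. The summed level of 8 neutrophil markers was 615 FPKM (WT), 2689 FPKM (*Dspp*+/-) and 3664 FPKM (*Dspp*-/-), and that of 6 osteoblast and bone markers was 10131, 2701 and 5285. Median log2 ratios to WT in *Dspp*+/- and *Dspp*-/- were 2.0 and 2.68 for the neutrophil list, 2.38 and 2.23 for 6 erythroid markers, -1.66 and -0.97 for the bone list, -3.00 and -1.04 for 5 cartilage markers and -1.28 and -0.71 for 6 osteoclast markers. *Xist*, expressed from the inactive X chromosome of female cells, had 0.00551 FPKM in WT against 28.5 and 26.5 in the mutant libraries, and the sex of the mice in each pool and the genotype cannot be told apart. In bulk tissue, fewer cells of a type and less RNA per cell cannot be told apart either. The *Dspp* transcript was not analysed here and gives no check of the genotype labels.

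In *Dspp*+/- against WT, *Ciita*, *H2-DMa* and *Cd74* were higher, *H2-Aa* and *H2-Eb1* were modestly higher, and *H2-Ab1* and *H2-DMb1* differed by less than counting error. In *Dspp*-/- against WT, *Ciita*, *H2-DMa* and, less so, *Cd74* were higher, *H2-Aa* and *H2-Eb1* differed by less than counting error, and *H2-Ab1* and *H2-DMb1* were lower. The 7 genes of 1 pathway thus did not differ between genotypes by a common factor. Genes averaging 1 FPKM or more over the 3 libraries entered the comparison. They were 13026 genes and included 6 of the 7, while *Ciita*, which averaged 0.794 FPKM, stayed outside. On the log2 scale of FPKM + 1, which understates the change of low genes, the median ratio of the 6 genes to WT was 0.37 in *Dspp*+/- and 0.087 in *Dspp*-/-, beside 0.058 and 0.0070 over all genes compared. Scaling to housekeeping genes, or without hemoglobin, immunoglobulin and muscle genes, turned the *Dspp*-/- median and the near-WT *H2-Aa* and *H2-Eb1* of *Dspp*-/- to just below 0. The same scalings took *H2-Ab1* in *Dspp*+/- from -0.029 to -0.24 and -0.21 on this log2 scale, and *H2-DMb1* from -0.13 to -0.32 and -0.30. At least 2-fold higher in *Dspp*+/- was 1 of the 6 genes, *H2-DMa*, against 4.88% of all genes compared. None of the 6 was at least 2-fold lower there, against 2.86%. Against WT in *Dspp*-/-, none of the 6 was 2-fold higher, against 4.05%, or 2-fold lower, against 1.37%. These counts, and the counts past 2-fold of every list below, are on the log2(FPKM + 1) scale. Without an added 1, *H2-DMa* was 2.33-fold higher in *Dspp*-/- as well. With 6 genes, such counts do not set the group apart from other genes.

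**Figure D1:**
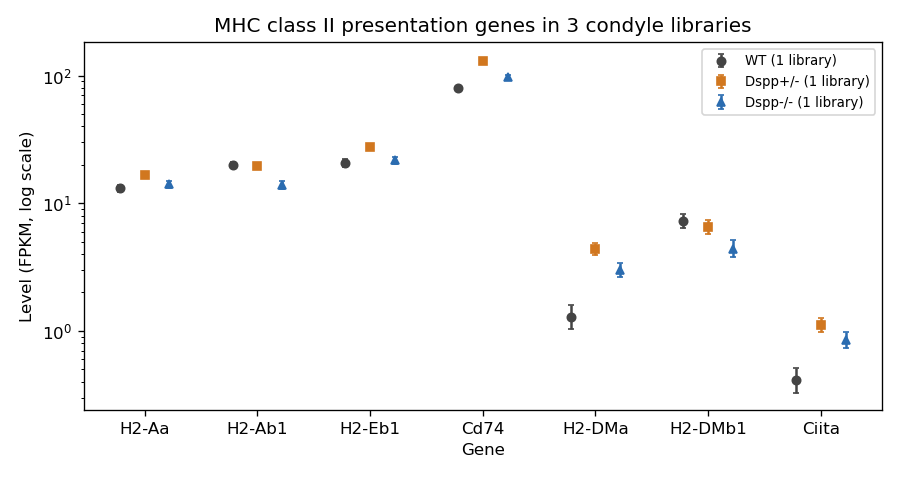
FPKM (log axis) of each listed gene in the WT, *Dspp*+/- and *Dspp*-/- libraries, 1 library each, with bars for the 95% Poisson interval of the fragment count. *Cd74* lies highest in every library and *Ciita* lowest, and for *H2-DMa* and *Ciita* the WT point lies below both mutant points.

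*Cd74*, the invariant chain gene on chromosome 18 from 60936920 to 60945724 in the authors' table, was the most abundant of the 7. It had 79.3 FPKM (WT), 131 FPKM (*Dspp*+/-) and 97.8 FPKM (*Dspp*-/-), from 2695, 5189 and 3654 fragments. It was above 98.5% of all genes of the table in WT and above 99.2% in *Dspp*+/-. Its fold against WT was 1.65 (95% Clopper-Pearson interval 1.58 to 1.73) for *Dspp*+/- and 1.23 (1.17 to 1.297) for *Dspp*-/-, so all 3 libraries differed beyond counting error. Of the summed FPKM of the 7 genes, *Cd74* made up 55.9% in WT, against 63.3% and 62.8% in the mutant libraries.

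The H2-A chains differed from each other in how they varied. *H2-Aa*, the alpha chain gene, lies at 34501718 to 34506797 of chromosome 17 and had 13.1 FPKM (WT), 16.7 FPKM (*Dspp*+/-) and 14.03 FPKM (*Dspp*-/-). *H2-Ab1*, the beta chain gene, lies at 34476663 to 34488393 of the same chromosome and had 19.9, 19.5 and 13.8 FPKM in the same order. The alpha chain was thus highest in *Dspp*+/-, while the beta chain was near the same level in WT and *Dspp*+/- and lowest in *Dspp*-/-. The fold against WT of *H2-Aa* was 1.28 (1.18 to 1.39) for *Dspp*+/- and 1.07 (0.985 to 1.17) for *Dspp*-/-. The fold of *H2-Ab1* was 0.979 (0.900 to 1.07) for *Dspp*+/- and 0.695 (0.633 to 0.763) for *Dspp*-/-. As a ratio within each library, which does not depend on how libraries are scaled, *H2-Aa* over *H2-Ab1* was 0.657 (0.602 to 0.717) in WT, 0.858 (0.795 to 0.927) for *Dspp*+/- and 1.01 (0.926 to 1.11) for *Dspp*-/-. The mutant intervals lay above that of WT. No 100-base sequence of either gene's transcripts occurs in another gene of GENCODE M21, so shared reads of that length do not link them to other H2 genes.

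*H2-Eb1*, the H2-E beta chain gene at 34524841 to 34535648 of chromosome 17, had 20.5 FPKM (WT), 27.6 FPKM (*Dspp*+/-) and 21.8 FPKM (*Dspp*-/-). Its fold was 1.35 (1.23 to 1.47) for *Dspp*+/- and 1.06 (0.963 to 1.17) for *Dspp*-/-. This pattern was close to that of *H2-Aa*, with a distance of 0.080 between the pairs of log2 ratios of the 2 genes, the smallest of any pair among the 7. The largest distance, 1.97, was between *H2-DMa* and *H2-DMb1*. *H2-Eb1* over *H2-Ab1* was 1.03 (0.939 to 1.13) in WT, 1.42 (1.31 to 1.54) for *Dspp*+/- and 1.57 (1.43 to 1.73) for *Dspp*-/-. *Cd74* over *H2-Ab1* likewise was lowest in WT, at 3.98 (3.71 to 4.28), against 6.71 and 7.07 in the mutant libraries.

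The H2-DM genes, whose products form the dimer that edits peptides in the groove, went separate ways. *H2-DMa*, at 34338515 to 34358075 of chromosome 17, had 1.29 FPKM (WT), 4.38 FPKM (*Dspp*+/-) and 3.01 FPKM (*Dspp*-/-), from 90, 357 and 231 fragments. WT was the lowest of the 3 libraries by more than counting error, with folds of 3.40 (2.69 to 4.33) for *Dspp*+/- and 2.33 (1.82 to 3.01) for *Dspp*-/-. *H2-DMb1*, at 34372046 to 34379204 of chromosome 17, had 7.26, 6.55 and 4.41 FPKM in the same order, from 247, 260 and 165 fragments. Here WT was the highest, with folds of 0.902 (0.755 to 1.08) and 0.608 (0.496 to 0.743). *H2-DMa* over *H2-DMb1* was 0.178 (0.138 to 0.227) in WT, 0.669 (0.569 to 0.788) for *Dspp*+/- and 0.683 (0.557 to 0.839) for *Dspp*-/-.

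Counting between neighbours bears on both H2-DM genes. The library kit does not mark strand, and 10.4% of the exon length of *H2-DMa* in GENCODE M21 overlaps *Brd2*, a bromodomain gene on the other strand. *Brd2* went the other way, with 23.95 FPKM (WT), 20.8 FPKM (*Dspp*+/-) and 20.4 FPKM (*Dspp*-/-). *H2-DMb1* shares 11.3% of its 100-base sequences with its paralogue *H2-DMb2*, which encodes a second H2-DM beta chain. *H2-DMb2* had 0.707 FPKM (WT), 4.10 FPKM (*Dspp*+/-) and 1.80 FPKM (*Dspp*-/-), from 25, 169 and 70 fragments, with folds of 5.79 (3.79 to 9.21) and 2.55 (1.59 to 4.20). With both beta chain genes added, the level was 7.97 FPKM (WT), 10.6 FPKM (*Dspp*+/-) and 6.21 FPKM (*Dspp*-/-), and *H2-DMa* over that sum was 0.162, 0.412 and 0.485.

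*Ciita*, the transactivator gene at 10297923 to 10346282 of chromosome 16, had 0.409 FPKM (WT), 1.12 FPKM (*Dspp*+/-) and 0.853 FPKM (*Dspp*-/-), from 79, 252 and 181 fragments. WT was again the lowest, with folds of 2.73 (2.12 to 3.57) and 2.08 (1.59 to 2.75). It overlaps *Dexi* on the other strand over 3.45% of its exon length, and *Dexi* was highest in WT, with 9.86 FPKM against 7.55 and 5.84. The fold of *Ciita* exceeded those of *H2-Aa*, *H2-Ab1*, *H2-Eb1* and *Cd74*, and its interval did not overlap theirs in either mutant library. The interval of *Ciita* overlapped that of *H2-DMa* in both.

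**Figure D2:**
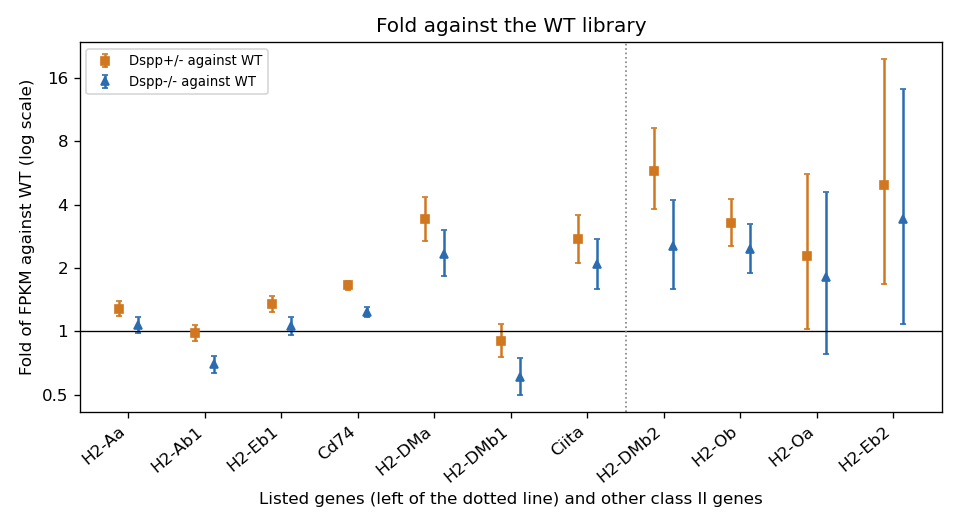
Fold of FPKM against the WT library (log axis) for the 7 listed genes and, right of the dotted line, 4 other class II genes, with bars for the 95% Clopper-Pearson interval. *H2-DMa*, *Ciita*, *H2-DMb2* and *H2-Ob* lie above 1 in both mutant libraries, and *H2-Ab1* and *H2-DMb1* lie below 1 in *Dspp*-/-.

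Between the mutant libraries, all 6 genes compared were lower in *Dspp*-/- than in *Dspp*+/-, against 55.3% of all genes compared, with log2 ratios from -0.48 to -0.24 and a median of -0.42. None was 2-fold lower, against 0.798% of all genes, or 2-fold higher, against 0.852%. The fold ran from 0.673 (0.551 to 0.822) for *H2-DMb1* to 0.839 (0.777 to 0.906) for *H2-Aa*, and *Ciita* was at 0.762 (0.626 to 0.926). The 7 folds were thus closer to each other here than against WT, where they ran from 0.902 to 3.40 in *Dspp*+/- and from 0.608 to 2.33 in *Dspp*-/-. Both comparisons against WT use the same WT library.

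**Figure D3:**
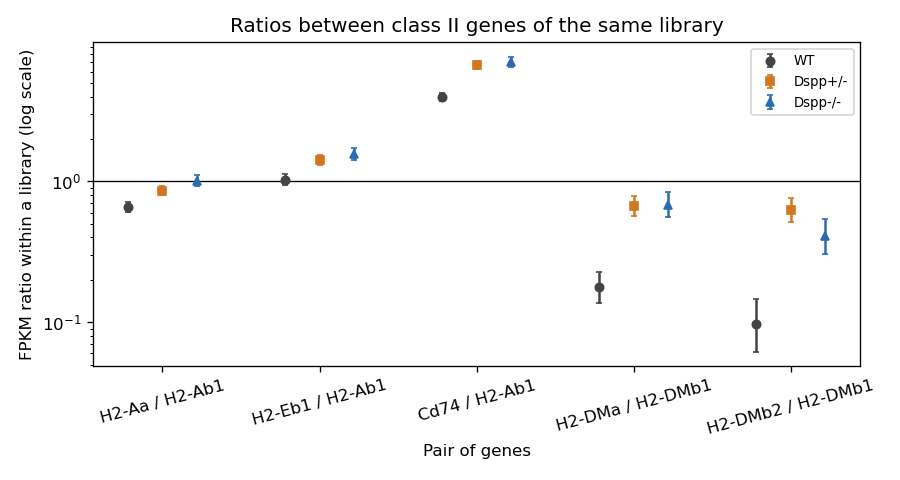
FPKM ratio of pairs of class II genes within each library (log axis), with bars for the 95% Clopper-Pearson interval. WT lies below both mutant libraries for every pair drawn, and *H2-DMa* over *H2-DMb1* is 0.178 in WT against 0.669 and 0.683. Every pair has *H2-Ab1* or *H2-DMb1* as its second gene, so the pairs are not independent of each other.

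The order of the levels per kilobase of merged exon was the same in WT and *Dspp*+/-, from *Cd74* through *H2-Eb1*, *H2-Ab1*, *H2-Aa*, *H2-DMb1* and *H2-DMa* to *Ciita*. *H2-Eb1* and *H2-Ab1* did not differ beyond counting error in WT. In *Dspp*-/-, *H2-Aa* and *H2-Ab1* changed places without differing beyond counting error. The order depends on the length used, since the merged exons of *H2-Aa* span 3798 bases and its principal transcript 1128. With principal lengths, an alternative added after the data were seen, *H2-Aa* had 44.1 FPKM in WT, *H2-Ab1* 42.2 and *H2-Eb1* 23.9, and *H2-DMa* over *H2-DMb1* was 0.309 in WT, against 1.16 and 1.19 in the mutant libraries. The folds of 1 gene between libraries do not depend on this length.

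The other class II genes in the table were all at low levels. *H2-Ob* encodes the beta chain of H2-O, a dimer that restrains H2-DM in B cells, and had 0.707 FPKM (WT), 2.31 FPKM (*Dspp*+/-) and 1.75 FPKM (*Dspp*-/-). Its folds were 3.27 (2.54 to 4.26) and 2.47 (1.89 to 3.25). *H2-Oa*, the alpha chain of the same dimer, had 9, 24 and 18 fragments, and the fold of 1.82 in *Dspp*-/- had an interval from 0.776 to 4.60. *H2-Eb2*, a second H2-E beta chain gene, had 4, 23 and 15 fragments. Together with *H2-DMb2*, all 4 had a fold above 1 against WT in both mutant libraries, and *H2-DMb2* and *H2-Ob* were abundant enough to be compared, with a median log2 ratio of 1.27 in *Dspp*+/- and 0.70 in *Dspp*-/-.

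Except for *Cd74* and *Ciita*, the listed genes lie in the class II region of chromosome 17, between *H2-Oa* and *H2-Eb2*. The authors' table has 18 genes there over 249 kb, from 34311314 to 34560386 in its own positions, and 12 averaged 1 FPKM or more. Their median log2 ratio was 0.45 in *Dspp*+/- and 0.087 in *Dspp*-/-, beside 0.058 and 0.0070 over all genes compared. Of the 12, 9 and 7 were higher than in WT, but the share of all genes higher by any amount was not computed. These counts therefore do not show whether the region differs from other genes. The 12 include the listed genes of this region. Class I genes of peptide supply stand between the class II genes. *Tap1*, a peptide transporter subunit, had folds of 1.74 (1.52 to 2.003) and 1.31 (1.13 to 1.53), while *Tap2*, the other subunit, had 1.02 (0.895 to 1.17) and 0.859 (0.745 to 0.989). Neighbouring genes therefore differed in their folds, as *H2-DMb2* and *H2-DMb1* did. The genes of this paragraph that are not class II were named after their values were seen.

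The regulators of class II transcription were mostly near WT. Of 14 regulators, 10 were higher and 4 lower in *Dspp*+/-, with 2 at least 2-fold higher and a median log2 ratio of 0.14. The *Dspp*-/- library had 8 higher and 6 lower, with 1 at least 2-fold higher and a median of 0.058. *Spi1*, encoding the myeloid and B cell factor PU.1, had 16.3 FPKM (WT), 17.8 FPKM (*Dspp*+/-) and 15.7 FPKM (*Dspp*-/-). *Nfyc*, a subunit of the Y box factor NF-Y, had 10.6, 11.8 and 11.1 FPKM. *Bcl6*, encoding a transcriptional repressor that acts in germinal centre B cells, had 9.03, 10.04 and 9.60 FPKM. *Irf4*, an interferon regulatory factor of B cells and dendritic cells, was the gene of this list at least 2-fold higher in both, with 1.20, 4.08 and 3.85 FPKM. *Irf8*, named after its values were seen, was 2-fold higher in *Dspp*+/- alone by this threshold, with 2.20, 6.23 and 3.90 FPKM. The RFX subunit genes *Rfx5*, *Rfxank* and *Rfxap*, also named after their values were seen, had folds below 1 in both mutant libraries, from 0.544 to 0.918. Those of *Rfxank* in *Dspp*+/-, at 0.918 (0.762 to 1.11), and of *Rfx5* in *Dspp*-/-, at 0.899 (0.752 to 1.07), differed from WT by less than counting error.

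Genes of antigen processing and of partners of the invariant chain went both ways. Of 11 genes, 4 were higher and 7 lower than WT in each mutant library, none by 2-fold on the log2(FPKM + 1) scale, with medians of -0.32 in *Dspp*+/- and -0.19 in *Dspp*-/-. *Ctsd*, the cathepsin D gene, had 176 FPKM (WT), 213 FPKM (*Dspp*+/-) and 163 FPKM (*Dspp*-/-), and *Ctsb*, the cathepsin B gene, 128, 101 and 108. *Lgmn*, an asparaginyl protease gene that osteoclasts also express, had 61.4, 31.4 and 45.5 FPKM. *Ctss*, which encodes the cathepsin that removes the invariant chain in B cells and dendritic cells, was named after its values were seen. It had 17.9, 35.8 and 30.2 FPKM, a fold of 2.0 in *Dspp*+/- and 1.69 in *Dspp*-/-. *Marchf1*, also named after its values were seen, was low, with 0.553, 1.51 and 1.47 FPKM. Its plain folds passed 2 in both mutant libraries, at 2.72 (2.11 to 3.54) in *Dspp*+/- and 2.65 (2.05 to 3.46) in *Dspp*-/-.

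Costimulatory and interferon genes accompany class II presentation. Of 7 costimulatory genes, 3 averaged 1 FPKM or more, and all 3 had higher values than WT in both mutant libraries without reaching 2-fold on the log2(FPKM + 1) scale, with medians of 0.67 and 0.40. *Icosl* had 1.66 FPKM (WT), 3.23 FPKM (*Dspp*+/-) and 2.03 FPKM (*Dspp*-/-), *Cd274*, encoding PD-L1, had 1.13, 2.69 and 2.66, and *Cd86* had 0.796, 1.03 and 1.37. *Cd86* in *Dspp*+/-, at a fold of 1.29 (0.920 to 1.83), and *Icosl* in *Dspp*-/-, at 1.23 (0.992 to 1.52), differed from WT by less than counting error. Interferon gamma is the classic inducer of *Ciita* outside professional presenting cells, and 14 genes of this response were listed. *Ifng* itself was at 0, 0.0981 and 0 FPKM. Of the 11 genes compared, 8 were higher in *Dspp*+/- and 9 in *Dspp*-/-, with medians of 0.44 and 0.20. On the log2(FPKM + 1) scale none was 2-fold higher, and *Socs1*, a feedback inhibitor, was 2-fold lower in *Dspp*+/-. By plain fold *Iigp1*, an interferon-inducible GTPase gene, was at 1.58 (1.32 to 1.90) and 2.45 (2.07 to 2.91). The 3 genes too low to be compared were *Ifng* and the chemokine genes *Cxcl9* and *Cxcl10*. *Cxcl9* had 10 (WT), 59 (*Dspp*+/-) and 85 (*Dspp*-/-) fragments, with folds of 5.06 (2.57 to 11.1) and 7.73 (4.01 to 16.7), and *Cxcl10* had 3, 11 and 23 fragments. *Socs1*, *Iigp1* and the chemokine genes were named after their values were seen. The receptor and kinase genes *Ifngr1*, *Jak1* and *Ifngr2* had folds from 0.931 to 1.29.

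The class I presentation list, which loads peptides from the cytosol, gave smaller differences. In *Dspp*+/- 14 of 15 genes were higher than WT, with a median log2 ratio of 0.19 and none 2-fold higher. The median over all genes compared was also above 0 there, at 0.058. Scaling to housekeeping genes, or without hemoglobin, immunoglobulin and muscle genes, moved that all-gene median by -0.18 and -0.16. These shifts are near the size of the list's median, so its count depends on the scaling. The *Dspp*-/- library had 7 higher and 8 lower, with a median of -0.075. *B2m*, the shared light chain, had 402 FPKM (WT), 458 FPKM (*Dspp*+/-) and 553 FPKM (*Dspp*-/-). *H2-D1*, a heavy chain gene, had 168, 172 and 140, and *Pdia3*, a chaperone gene of peptide loading, 82.2, 70.6 and 73.5.

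Markers of the cells that carry class II differed to different extents. All 12 B cell markers were higher than WT in both mutant libraries. The 10 compared had median log2 ratios of 1.34 and 1.18, and 9 of them were at least 2-fold higher in *Dspp*+/- and 7 in *Dspp*-/- on the log2(FPKM + 1) scale. Their plain folds all passed 2, and with *Bank1*, outside the comparison, ran from 2.70 to 4.66 in *Dspp*+/- and from 2.23 to 4.404 in *Dspp*-/-. Their summed level over all 12 was 26.0 FPKM (WT), 96.9 FPKM (*Dspp*+/-) and 69.9 FPKM (*Dspp*-/-). *Cd79a* and *Cd79b*, the signal chains of the B cell receptor, had *Dspp*+/- folds of 3.93 and 3.69 and *Dspp*-/- folds of 2.34 and 2.61, and *Spib*, a transcription factor gene of B cells, had 3.60 and 2.54. The folds of *H2-DMa* and *H2-Ob* lay within these ranges in both mutant libraries. *Ciita* lay within in *Dspp*+/- and below in *Dspp*-/-, *H2-DMb2* above in *Dspp*+/- and within in *Dspp*-/-, and *Cd74*, *H2-Aa*, *H2-Ab1*, *H2-Eb1* and *H2-DMb1* below in both. Divided by the summed B cell markers, *H2-DMa* was 0.0495 in WT, 0.0452 in *Dspp*+/- and 0.0430 in *Dspp*-/-, while *H2-Ab1* was 0.765, 0.201 and 0.198 and *Cd74* 3.05, 1.35 and 1.40. Over the summed dendritic cell markers, *H2-DMa* was 0.156, 0.353 and 0.281, *H2-Ab1* 2.41, 1.57 and 1.29 and *Cd74* 9.62, 10.5 and 9.12. Over the summed macrophage and monocyte markers, *H2-DMa* was 0.00636, 0.0208 and 0.0153, *H2-Ab1* 0.0981, 0.0923 and 0.0705 and *Cd74* 0.391, 0.620 and 0.498. The 3 genes thus differed in which marker sum they varied least against. The macrophage and monocyte sum mixes markers that went opposite ways. Of its 11 markers, 7 were higher and 4 lower than WT in *Dspp*+/-, and 4 were higher and 7 lower in *Dspp*-/-. No B cell, dendritic cell or macrophage marker was at 0 in any library. The part of B cells in the differences of the class II genes was not tested.

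B cell precursor markers, most of which precede high class II expression, were mixed. Of 6, 4 were compared, and 2 were higher in *Dspp*+/- and 4 in *Dspp*-/-, with median log2 ratios of 0.36 and 0.72. *Vpreb3* had 3.57, 8.97 and 10.2 FPKM, *Rag1* 1.82, 3.74 and 3.49, and *Vpreb1* 1.40, 0.565 and 1.46. Dendritic cell markers were low, with a summed level over 10 genes of 8.25 FPKM (WT), 12.4 FPKM (*Dspp*+/-) and 10.7 FPKM (*Dspp*-/-). Of the 4 compared, 3 were higher in *Dspp*+/- and 4 in *Dspp*-/-, with medians of 0.40 and 0.12, and none reached 2-fold on the log2(FPKM + 1) scale. By plain fold *Cd209a* was at 2.50 (1.68 to 3.80) and 1.31 (0.829 to 2.09), and *Siglech*, a marker of plasmacytoid dendritic cells named after its values were seen, at 2.14 (1.51 to 3.09) and 2.81 (2.001 to 4.01). *Zbtb46*, a factor of classical dendritic cells, had 2.36, 2.16 and 2.43 FPKM, *Cd209a* had 1.06, 2.65 and 1.39, and *Clec10a* 1.06, 1.46 and 1.10.

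The 11 macrophage and monocyte markers summed to 203 FPKM (WT), 211 FPKM (*Dspp*+/-) and 196 FPKM (*Dspp*-/-), with median log2 ratios of 0.13 and -0.073. *Cd68* had 50.4, 34.7 and 44.3 FPKM, *Csf1r* 43.2, 25.1 and 33.2, and the complement gene *C1qb* 33.5, 38.2 and 31.8. The 2 markers at least 2-fold higher in both mutant libraries, *Ly6c2* and *Ccr2*, mark monocytes from the marrow and were named after their values were seen. *Ly6c2* had 1.97, 31.9 and 22.7 FPKM and *Ccr2* 1.54, 10.1 and 7.59. T cell markers, whose cells read class II but in mice hardly express it, summed to 5.86, 9.55 and 8.31 FPKM over 9 genes, of which 4 were compared, with medians of 0.39 and 0.25. *Trac* had 2.17, 2.58 and 2.50 FPKM, *Cd4* 1.78, 2.45 and 1.69, and *Lat* 0.857, 1.56 and 1.38. The part of each of these cell types in the class II differences was not tested.

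**Figure D4:**
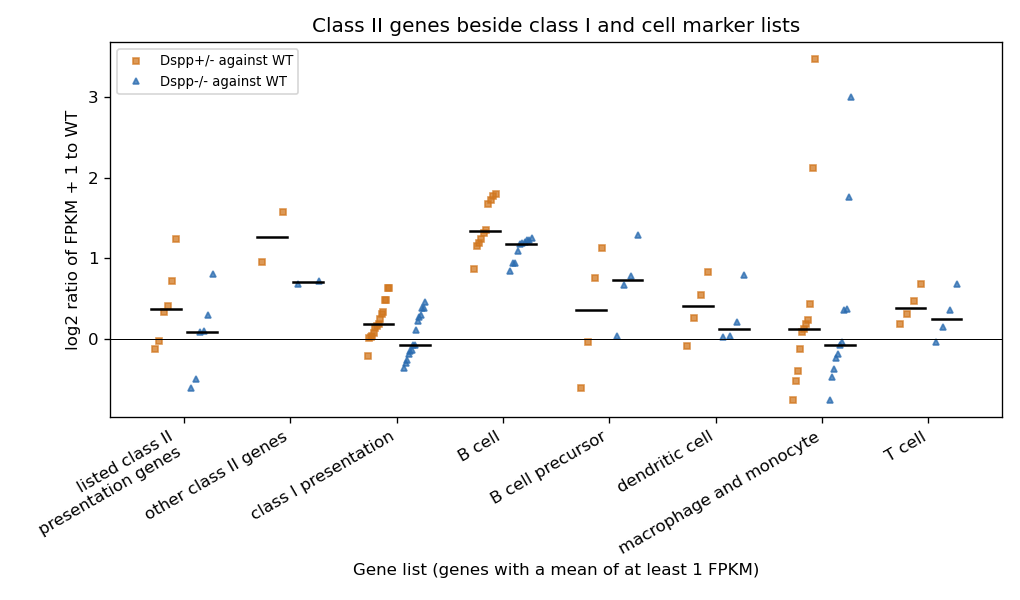
Log2 ratio of FPKM + 1 to WT for the listed class II genes, other class II genes, class I genes and cell marker lists, 1 point per gene averaging 1 FPKM or more and a bar at the list's median. The listed class II genes have medians of 0.37 in *Dspp*+/- and 0.087 in *Dspp*-/-, and the B cell markers 1.34 and 1.18.

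Likeness of pattern was measured as the distance from the median pair of log2 ratios of the 6 compared genes, over 3 libraries, among 7128 other genes averaging 5 FPKM or more. The nearest were *Rnf10*, *Psmd12*, *Phb*, *Prune1* and *Mpc2*, at distances from 0.0048 to 0.016. Within a distance of 0.1 lay 183 of the 7128 genes, so the median pattern was not particular to the 6 genes. It does not describe each of the 6, since *H2-DMa* and *H2-DMb1* stood 1.97 apart.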

How the data were processed

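Mandibular condyle RNA was sequenced in 3 libraries, 1 per genotype. Per the labels it was poly(A)-selected and read in pairs of 150 bases. The authors deposited 1 table whose unit is not named, and its values were read as FPKM, fragments scaled to exon length and library size. The submitters' processing notes list FastQC 0.11.5, HISAT2 2.1.0, StringTie 1.3.3b and DESeq 1.28.0 without roles, and a human genome build. The mouse build is not given in the sources used here. None of the 7 genes has its GRCm38 start and end in the table.

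FPKM times merged exon length in GENCODE M21 fell on whole multiples of a step set for each library, within 0.1 fragments, for 99.1% of genes under 100 fragments in each library, and this gave the depth. Recovery was tested on simulated data. FPKM is not adjusted for composition, and mitochondrial genes held 25.0%, 36.9% and 37.3% of the summed FPKM in WT, *Dspp*+/- and *Dspp*-/-. Genes averaging 1 FPKM or more were compared as log2 ratios of FPKM + 1, and counted past 2-fold. Intervals are 95% Clopper-Pearson (folds, ratios) or Poisson (levels). Fragments are not independent molecules, so they cover counting error only. No fold is given where both libraries have 3 fragments or fewer. No p-value was computed. The 10 alternatives covered pseudocount, filter, fold and scaling.

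The genes and the 16 other lists were chosen with earlier results of these data known. Named are the 7 genes, the other class II genes, of every list the 3 most abundant in WT, of the lists that are not cell markers also up to 5 at least 2-fold different in both mutant libraries, and others after their values were seen. Scripts ran under Python 3.11.15 with scipy 1.17.1 for the intervals, pandas 2.3.3 and numpy 2.4.6 for the tables, and matplotlib 3.10.9 for the plots. *H2-Ea* and *Dspp* were not analysed here.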

Additional observations from a re-analysis of the deposited data

How the results depend on the processing

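No paired analysis was possible because each genotype has 1 library, and no library could be left out for the same reason. The median log2 ratio of the 6 genes to WT, 0.37 in *Dspp*+/- and 0.087 in *Dspp*-/-, stayed above 0 in *Dspp*+/- under all 8 alternatives and was 0.16 with scaling to housekeeping genes and 0.19 with scaling that left out hemoglobin, immunoglobulin and skeletal muscle genes. In *Dspp*-/- these scalings turned it to -0.031 and -0.076. They also moved the median of all genes by -0.18 and -0.16 in *Dspp*+/- and by -0.10 and -0.14 in *Dspp*-/-, and relative to that median the 6 genes stood at 0.28 and 0.29 in *Dspp*+/- and at 0.066 and 0.060 in *Dspp*-/-. The same scalings turned *H2-Aa* and *H2-Eb1* below 0 in *Dspp*-/-. These 4 were the sign changes among 108 values of single genes. Of the 108, 24 left a counting interval on the log2(FPKM + 1) scale, which is not the plain-fold interval printed above. The scalings took *Cd74* in *Dspp*-/- from 0.30 to 0.18 and 0.13, and in *Dspp*+/- *H2-Aa* from 0.33 to 0.12 and 0.15 and *H2-Eb1* from 0.41 to 0.20 and 0.23. Pseudocounts of 5 and 0.1 took *Ciita* in *Dspp*+/- from 0.59 to 0.18 and 1.26, and *H2-DMa* from 1.23 to 0.58 and 1.69. The count of genes at least 2-fold higher in *Dspp*+/-, 1, became 0 with a pseudocount of 5, with a filter at 5 FPKM, which leaves *H2-DMa* out, and at 4-fold, and 2 at 1.5-fold. In *Dspp*-/- the count of 0 became 1 with a pseudocount of 0.1 and at 1.5-fold, and the count of genes at least 2-fold lower, 0, became 1 at 1.5-fold. Depth limits *H2-Oa* and *H2-Eb2*, with 9 and 4 fragments in WT.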
